A study of Mus musculus with 2 samples.

Results

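The genes described here lie in 2 dense clusters of KRAB zinc finger genes in the mouse genome. One is near the end of chromosome 2 and one near the end of chromosome 4. Members were the protein-coding transcripts with an intron value that lay, in GENCODE M21 on GRCm38, between 174.5 and 178.5 Mb of chromosome 2 or between 145 and 147.9 Mb of chromosome 4, and whose gene symbol started with Zfp, Gm or Rex2 or ended in Rik. The rule, though set with earlier results of these data known, used position and name only, and no measured value. Some members therefore match no KRAB pattern or code for no finger, as given below. It found 156 transcripts of 67 genes among the 46833 protein-coding transcripts with an intron value. Of these, 115 transcripts of 46 genes lay on chromosome 2 and 41 transcripts of 21 genes on chromosome 4.

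The RNA came from wild-type DTCM23/49 XY mouse embryonic stem cells, a pluripotent cell line, depleted of feeder cells and grown on gelatin with serum and leukemia inhibitory factor. The cells received 200 µM 4-thiouridine (4sU), a uridine analogue that is built into new transcripts, for 10 min, after which biotinylated RNA was pulled down with streptavidin beads (labeled RNA) and the rest was kept as preexisting RNA (unlabeled RNA). The labeled and the unlabeled pool were each sequenced as 1 library of replicate 1, so no value below has a replicate check and no test was made. The labels disagree on the second library, which is preexisting RNA in its description and total RNA in other fields, and it was used as unlabeled RNA. Each transcript has 1 exon and 1 intron value per library. These are relative abundances corrected for length, called TPM by the authors although each column sums to 10 times a TPM total, and a "level" is a value on this scale. The depth of the libraries is unknown, so that no counting error can be given, and a difference between levels in labeled and unlabeled RNA is relative to the total of each library. In such bulk samples fewer cells that express a gene and less RNA per cell cannot be told apart. Of the 12 embryonic stem cell markers checked, 12 had an exon level above 10 in both libraries, from 62.8 to 4574 in labeled RNA. None of 11 markers of 2-cell-like cells and none of 9 of fibroblasts did (summed levels 19.7 and 8.72 in labeled and 9.23 and 20.9 in unlabeled RNA, with Tcstv3, Usp17le, Col3a1 and Postn listed at 0 in both), whereas Dab2 of 7 primitive endoderm markers and Pax6 and Nes of 9 mesoderm and ectoderm markers did.

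KRAB zinc finger proteins are repressors that read DNA with a tandem array of C2H2 fingers, each a short loop in which a pair of cysteines and a pair of histidines hold a zinc ion. Their KRAB domain binds TRIM28, which brings the H3K9 methyltransferase SETDB1 and other silencing factors to the bound site. Many of them recognise retrotransposons, and in embryonic stem cells they hold such elements silent; their genes have multiplied by tandem duplication, so neighbours in a cluster can be close copies of each other.

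The copies are visible in the sequence that codes for the fingers. From the coding sequences of the member transcripts, each finger was cut out as a unit of 84 bases that starts at the first cysteine codon and runs through the linker to the next finger. The chromosome 2 genes held 188 distinct units, of which 72 (38.3%) occurred in more than 1 gene, and 1 unit was found in 17 of the 39 genes with any unit. The chromosome 4 genes held 144 distinct units, of which 37 (25.7%) occurred in more than 1 gene, with at most 5 of 20 genes sharing 1 unit. No unit occurred in both windows. The units below are shown for this contrast: the most widely shared unit of each window, followed by the first unit of Zfp979 and of Rex2, with the codons of the zinc-binding cysteines and histidines in capitals.
Gm2007, chr2:175750235-175750318 (+ strand): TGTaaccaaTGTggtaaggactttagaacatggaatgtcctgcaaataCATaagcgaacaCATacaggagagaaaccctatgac
Zfp987, chr4:146124807-146124890 (+ strand): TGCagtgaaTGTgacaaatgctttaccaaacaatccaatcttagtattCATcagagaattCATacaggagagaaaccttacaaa
Zfp979, chr4:147613309-147613392 (− strand): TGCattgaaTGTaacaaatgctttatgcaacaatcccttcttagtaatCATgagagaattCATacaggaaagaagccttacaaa
Rex2, chr4:147057813-147057896 (+ strand): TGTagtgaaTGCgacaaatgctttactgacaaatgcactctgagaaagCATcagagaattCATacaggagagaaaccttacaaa
The Gm2007 unit matched the Zfp987 unit at 50 of 84 bases (59.5%), whereas the Zfp987 unit matched those of Zfp979 and Rex2 at 73 (86.9%) and 72 bases (85.7%). Those of Zfp979 and Rex2 matched each other at 66 bases (78.6%). Only the units shown were compared, and only that of Gm2007 is from chromosome 2.

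Promoters shared sequence as well. RefSeq promoters on GRCm38.p6 (250 bases before to 50 after the start) were matched by symbol for 45 of the 67 genes, 31 on chromosome 2 with 36 promoters and 14 on chromosome 4 with 17. A run of 30 bases, actctaaccctaagggtggtgctcatgtca, stood in 32 of the 36 chromosome 2 promoters (28 of 31 genes), in 0 of the 17 chromosome 4 promoters and in 1 of 32798 promoters of other genes. Its first base lay 37 to 153 bases before the start. On chromosome 4 the most widely shared run was 21 bases long, aagaactgggaagctaattaa, in 9 of 17 promoters (9 of 14 genes) and in none of the 32798 others. The 250 bases before the start of Gm2007 and of Zfp979, which are among the highest-expressed genes of their windows, are printed here as examples, with the run and every CCAAT (or its reverse complement ATTGG) in capitals. The RefSeq start of Gm2007 lies before the first base of its GENCODE transcripts.
Gm2007, chr2:175737624-175737873 (+ strand): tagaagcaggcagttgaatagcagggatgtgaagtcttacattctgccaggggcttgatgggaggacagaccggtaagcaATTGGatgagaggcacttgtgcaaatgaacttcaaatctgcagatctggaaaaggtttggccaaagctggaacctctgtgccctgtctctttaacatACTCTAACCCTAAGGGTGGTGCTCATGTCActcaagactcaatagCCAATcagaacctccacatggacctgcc
Zfp979, chr4:147642509-147642758 (− strand): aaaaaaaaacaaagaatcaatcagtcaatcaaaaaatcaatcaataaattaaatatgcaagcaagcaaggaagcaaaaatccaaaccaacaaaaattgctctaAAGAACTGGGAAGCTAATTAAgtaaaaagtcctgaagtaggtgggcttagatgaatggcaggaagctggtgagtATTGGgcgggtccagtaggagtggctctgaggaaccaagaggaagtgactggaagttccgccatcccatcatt
CCAAT on either strand was found in 94.4% of the chromosome 2 and 76.5% of the chromosome 4 promoters, against 45.1% of the promoters of other Zfp genes and 37.4% of all 32851 promoters of this length. GGGCGG on either strand, the core of a GC box, was found in 0 of 36 chromosome 2 promoters and in 11 of 17 (64.7%) chromosome 4 promoters, against 44.0% in other Zfp genes and 35.7% of all. TATAAA, the core of a TATA box, was found in 1 promoter of each window (2.78% and 5.88%), against 7.03% in other Zfp genes and 13.6% of all. The motifs were chosen after the sequences were seen, both strands were searched for each, and CCAAT and GGGCGG can share bases, as they do in the promoter of Zfp979. A match is a description of the letters. Promoters that share a run may not be independent of each other, and whole promoters were not compared.

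How much of a member's sequence is its own bears on every level that follows, because reads that match several copies have to be divided among them, which RSEM does by an estimated share. A transcript's own sequence was measured as the share of its exonic 31-mers that occur in no transcript of another gene. It was under 50% in 141 of the 154 members that passed the filter described next, against 7.8% of all protein-coding transcripts, and the median was 4.02% on chromosome 2, 26.7% on chromosome 4, 98.0% in other Zfp genes and 99.8% overall. On chromosome 2, 54 of 113 transcripts had no 31-mer of their own (0.883% of all protein-coding transcripts had none). On chromosome 4, 30 of 41 transcripts had under 50%, and no transcript had more than 8.68% in Zfp993, 5.73% in Zfp986 or 4.62% in Rex2. Levels of single transcripts and genes, and their ranks, are therefore uncertain in both windows, and introns could not be checked in this way.

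**Figure D1:**
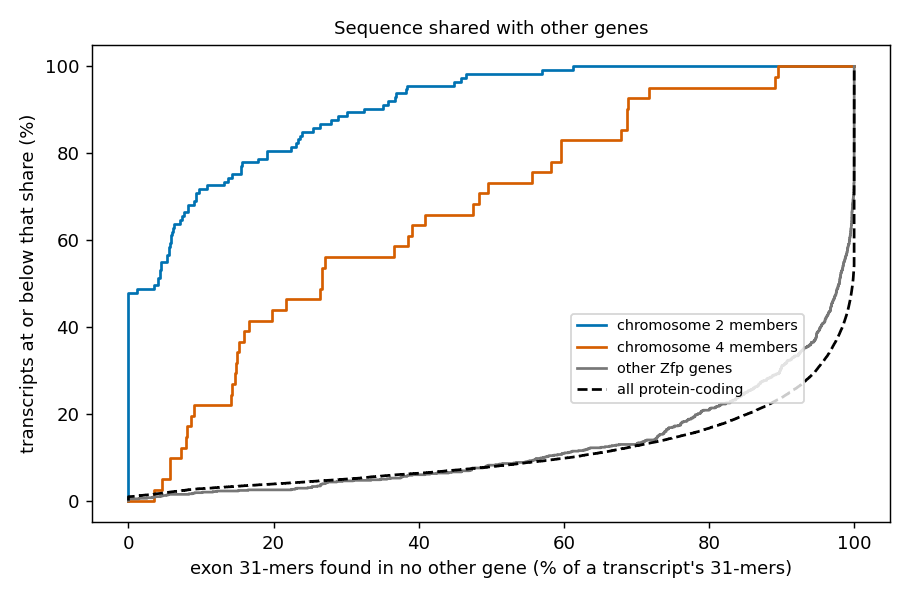
Share of a transcript's exonic 31-mers that occur in no other gene (horizontal axis, %) against the share of transcripts at or below that value (vertical axis, %), for the 113 chromosome 2 members, the 41 chromosome 4 members, other Zfp genes and all protein-coding transcripts. The chromosome 2 curve starts at 47.8% because 54 transcripts have no 31-mer of their own. The lower quartile is 85.3% in other Zfp genes and 91.2% in all transcripts.

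The comparison took in every protein-coding transcript that had no value of 0 and whose exon level averaged above 1 over the libraries, 31386 in all, and 154 of the 156 members were among them. The 2 others were Zfp831, with exon levels of 0.37 in labeled and 0.12 in unlabeled RNA, and 1 of 3 transcripts of Zfp972, listed at 0 in labeled RNA and 5.91 in unlabeled RNA. Zfp831 lies apart at the edge of the window, codes for 2 C2H2 motifs without a KRAB pattern, and has 99.98% of its 31-mers to itself. Together the members took 1.07% of the exon sum of the labeled library and 1.36% of that of the unlabeled library, and 1.99% and 1.93% of the intron sums.

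Members were expressed at high levels, the chromosome 4 genes above the chromosome 2 genes. Summed over the transcripts of a gene with an intron value, the mean exon level was at least 1000 in 37 of 67 member genes, against 4.41% of all protein-coding genes and 8 of 334 other Zfp genes. It reached this level in 20 of 21 genes on chromosome 4 and in 17 of 46 on chromosome 2, with medians of 2813 and 712 where all genes had a median of 42.2 and other Zfp genes one of 49.0. The 12 transcripts of 6 other protein-coding genes in the windows that passed the filter stood far lower, with exon levels of at most 48.9 in labeled and 13.4 in unlabeled RNA.

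On chromosome 4, Zfp993 was highest, with exon levels of 5284 in labeled and 8986 in unlabeled RNA and intron levels of 1917 and 460. Zfp979 followed at 4737 and 8509 in exons and 1922 and 450 in introns. Zfp978 had exon levels of 4695 and 8127, and introns of 1293 and 349. In each of the 3, exons were the lower in labeled RNA and introns the higher, and this held in all 21 genes of the window. Zfp985, Zfp600, Gm13212, Zfp981, Zfp987, Gm21411, Zfp989, Zfp980 and Zfp986, the others of the 12 highest, had exon levels of 2164 to 4560 in labeled and 3120 to 6682 in unlabeled RNA. Rex2, which codes for 15 C2H2 motifs, was 16th of 21, with exon levels of 1270 and 1600 and intron levels of 601 and 192. Zfp933, the last gene of the window and with 89.5% of 31-mers of its own the least shared, was lowest, at 226 and 233 in exons and 79.7 and 42.8 in introns.

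On chromosome 2 the highest genes were near-copies of each other. Gm2007 had exon levels of 2015 in labeled and 2646 in unlabeled RNA and intron levels of 481 and 227. Gm11007 was next, at 2051 and 2603 in exons and 440 and 234 in introns. The pair shares whole spliced sequences, described below, so that their division into 2 genes is the estimate of the quantification. Gm14391, Gm4724, Gm14399, Gm4631, Gm14325, Gm2026, Gm14326, Gm14305, Gm2004 and Gm14295, the others of the 12 highest, ranged from 1171 to 1902 in labeled and from 1287 to 2453 in unlabeled RNA. Gm14295 codes for the longest array of the members, with 25 C2H2 motifs. The lowest genes after Zfp831 were Gm11009 (39.9 and 34.1), Gm14408 (47.7 and 49.2) and Zfp972 (69.7 and 52.0). None of these 3 codes for a C2H2 motif or matches the KRAB pattern in the reference coding sequences.

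**Figure D2:**
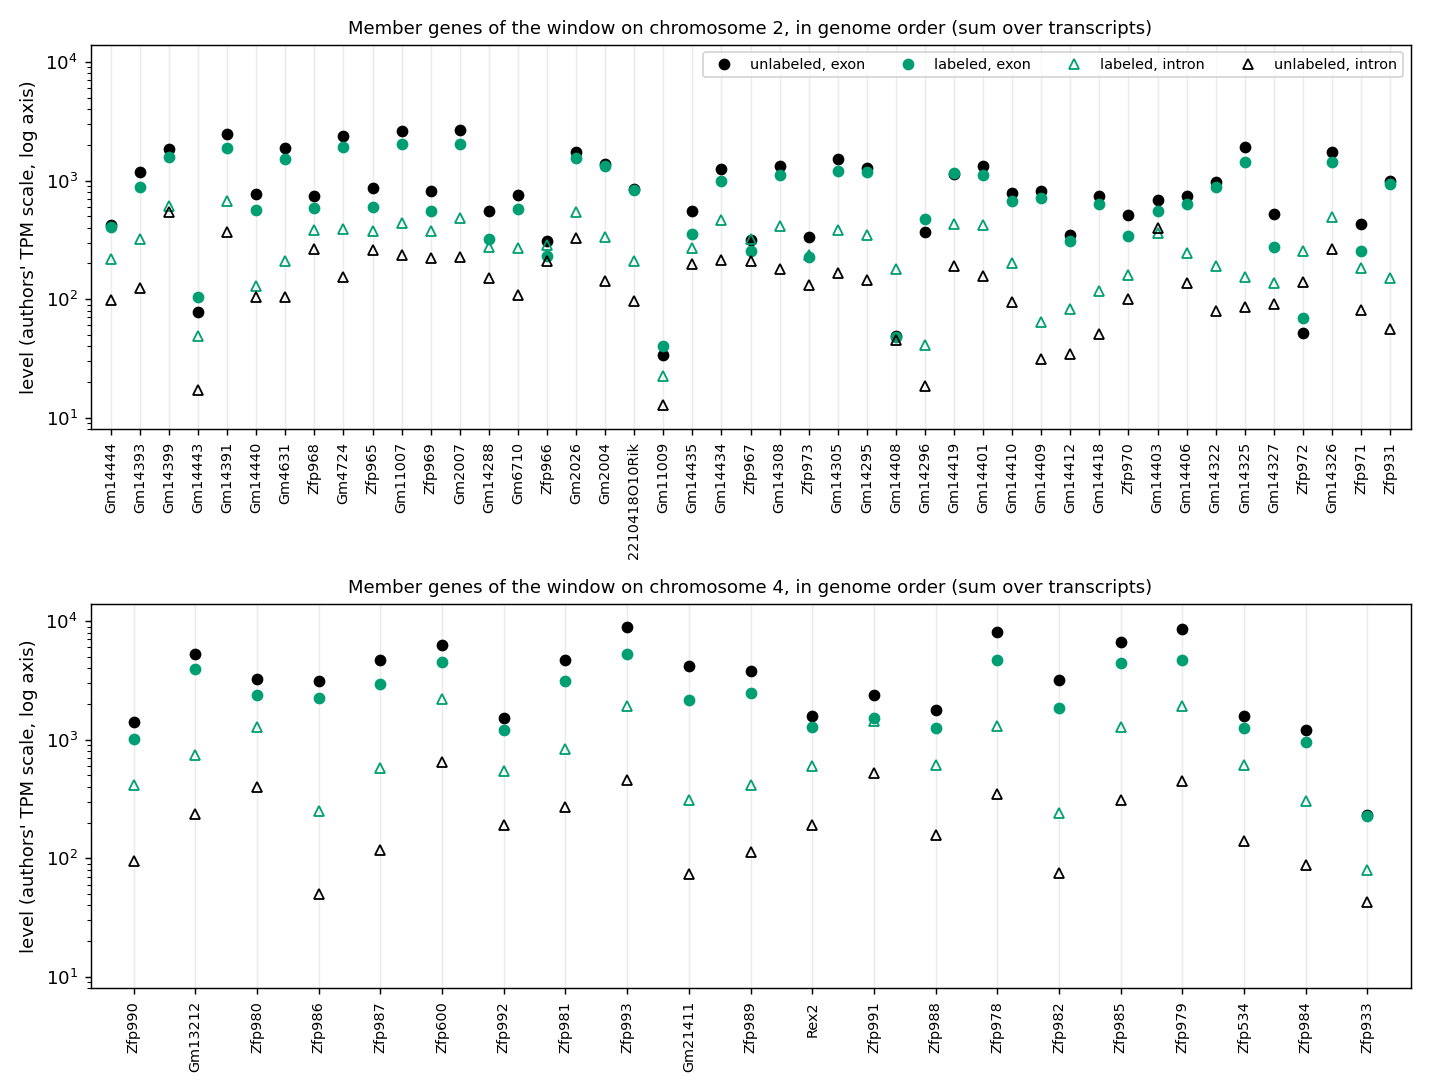
Exon (circles) and intron (triangles) level in labeled (green) and unlabeled (black) RNA on a log axis, summed over the transcripts of each gene, for 45 genes on chromosome 2 (top, Zfp831 left out) and 21 genes on chromosome 4 (bottom) in genome order. Intron levels are higher in labeled RNA in all but Gm14403, and exon levels are higher in unlabeled RNA in all genes of chromosome 4 and most of chromosome 2.

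Genes with a Zfp symbol and with a Gm or Rik symbol are interspersed along chromosome 2 and differed in level. The 10 genes with a Zfp symbol that passed the filter had a median mean exon level of 384 (range 60.9 to 966), and the 35 with a Gm or Rik symbol one of 925 (37.0 to 2331). Their median intron levels in labeled RNA were 270.5 and 270.1, so that the median labeled intron to exon ratio was 0.704 in those with a Zfp symbol and 0.349 in the others. A labeled ratio of 1 or more was found in 4 of 10 and in 1 of 35 genes (28.9% of all genes). This grouping was chosen after the values were seen, and the ranges overlap.

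In labeled RNA, exon levels of the members stood slightly below those in unlabeled RNA, and seldom far from them. The median log2 labeled over unlabeled exon level was −0.31 in the 113 chromosome 2 transcripts and −0.55 in the 41 chromosome 4 transcripts, next to −0.34 in 774 transcripts of other Zfp genes and −0.40 in all. Over both windows the median differed from that of other Zfp genes by −0.014, and by 0.047 in the opposite direction when the minimum mean exon level was raised from 1 to 10. The interval of the first difference, −0.12 to 0.075, holds the second too. Exon levels were higher in unlabeled RNA in 89 of 113 transcripts on chromosome 2 and in 41 of 41 on chromosome 4 (63.7% of all protein-coding transcripts). A 2-fold difference was rare. Only 2 of 154 members were at least 2-fold higher in unlabeled RNA and 1 in labeled RNA, where 26.8% and 13.9% of all transcripts were. The interquartile range of the log2 value was 0.40 in members, 1.05 in other Zfp genes and 1.44 in all. Members are higher in level than most transcripts, and copies share reads, and the part of either in this narrow range was not tested.

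Summed per gene, 61 of 67 member genes had the higher exon level in unlabeled RNA (60.3% of all genes). Gm21411 (log2 −0.94; exon levels 2164 and 4145), Gm14327 (−0.92; 276 and 521) and Zfp979 (−0.84) were the furthest toward unlabeled RNA. Zfp972 (0.42), Gm14443 (0.42; 104 and 77.4) and Gm14296 (0.38; 476 and 366) were the furthest toward labeled RNA. No member gene reached a 2-fold difference in exon level (23.0% of all genes did toward unlabeled and 16% toward labeled RNA), apart from Zfp831, which was 3.08-fold higher in labeled RNA at levels under 1.

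The windows differed more in introns than in exons, a difference that was not among the results recomputed under alternatives. How much intron sequence the copies share was not checked. The median log2 labeled over unlabeled intron level was 1.86 on chromosome 4, close to 1.94 in other Zfp genes and 1.99 in all transcripts, and 1.14 on chromosome 2. An intron level at least 2-fold higher in labeled RNA was found in 39 of 41 transcripts on chromosome 4 and 73 of 113 on chromosome 2, against 89.0% of all. The intron level was higher in labeled RNA in 149 of 154 members, near the 97.4% of all transcripts. The other 5 were on chromosome 2. They were 1 transcript each of Gm14399 (283 in labeled and 377 in unlabeled RNA), Gm14403 (306 and 379), Gm14440 (53.3 and 59.8), Gm14435 (48.7 and 59.7) and Gm14327 (52.8 and 56.6). The last 3 span under 400 bases of the genome in 2 exons, with spliced lengths of 192 bases. Summed per gene, introns were at least 2-fold higher in labeled RNA in 45 of 67 members (88.9% of all genes). Gm14403 was the only member gene with a lower summed intron level in labeled RNA, 358 against 400 (97.3% of all genes were higher in labeled RNA).

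**Figure D3:**
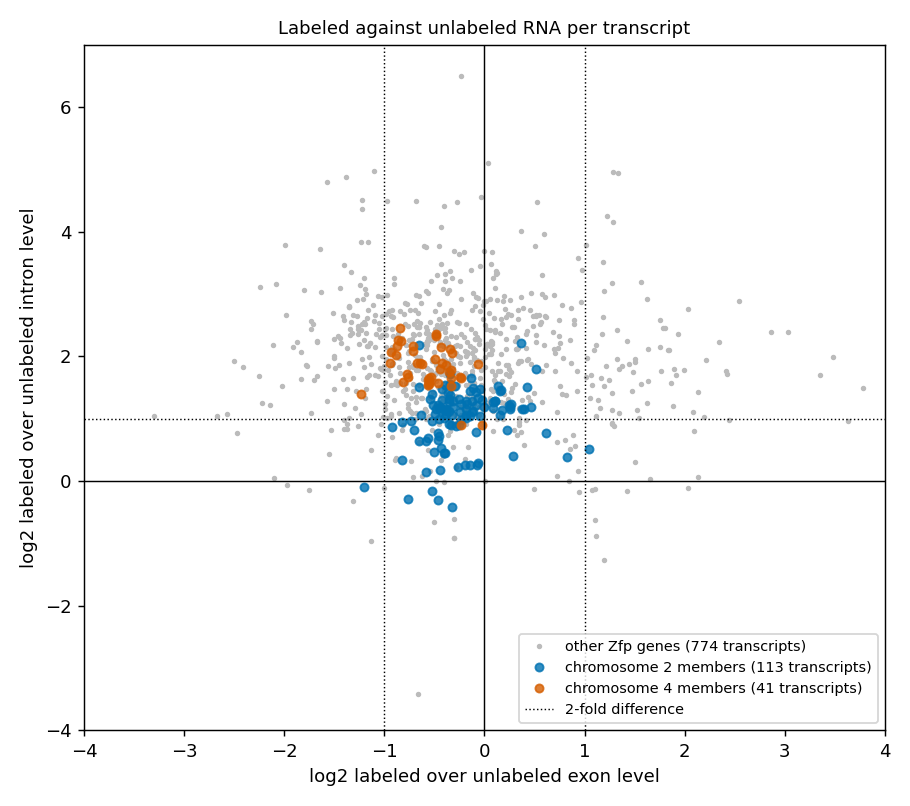
Log2 labeled over unlabeled exon level (horizontal) against the same for introns (vertical), 1 point per transcript, for members of chromosome 2 (blue), of chromosome 4 (orange) and other Zfp genes (grey). Members lie in a narrow band just left of 0 for exons, with chromosome 4 around 1.86 and chromosome 2 around 1.14 for introns.

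The intron to exon ratio in labeled (rl) and unlabeled (ru) RNA is what the kinetic model of the study rests on. New RNA still holds introns, so rl should exceed ru, and a transcript with rl of 1 or more, or with rl not above ru, cannot be described by the model. The median rl was 0.405 on chromosome 2 and 0.338 on chromosome 4, below the 0.706 of other Zfp genes and the 0.570 of all transcripts. The median ru was 0.162 on chromosome 2 and 0.0733 on chromosome 4, with 0.148 in other Zfp genes and 0.111 overall. The order of the windows in rl was not resolved. Over all members chromosome 2 was higher by 0.26 on the log2 scale (interval −0.74 to 1.13). Among transcripts that code for 3 or more fingers the difference was −0.56 (−1.51 to 0.47). The gap in ru depended on the transcripts taken. Its medians were 0.0883 on chromosome 2 and 0.0801 on chromosome 4 in transcripts with 3 or more fingers, and 0.288 and 0.0585 in those without. An rl of 1 or more occurred in 23 of 154 members (14.9%, 95% Wilson interval over transcripts 10.2 to 21.4%), 19 on chromosome 2 and 4 on chromosome 4, against 28.2% of all transcripts. That interval takes transcripts as independent, although transcripts of a gene and close copies share reads. The share was 6.06% with 1 transcript per gene, and no share of all transcripts taken in that way is given here. It was 30.8%, above that of all transcripts, in the 13 members with at least 50% of 31-mers of their own. Of those 13, 11 lie on chromosome 4 and 2 on chromosome 2. The interval there, 12.7 to 57.6%, holds both 14.9% and 28.2%. In 2 more, 1 each of Gm14399 and Gm14326, rl was under 1 and not above ru (5.1% of all transcripts), so that 25 members (16.2%) were incompatible with the model (33.3% of all). Members differ from the other transcripts in level too, with a median mean exon level of 423 against 24.1 overall. With the minimum mean exon level raised from 1 to 10, all 154 members stayed and the difference of the median log2 rl to other Zfp genes was −0.53 in place of −0.83.

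**Figure D4:**
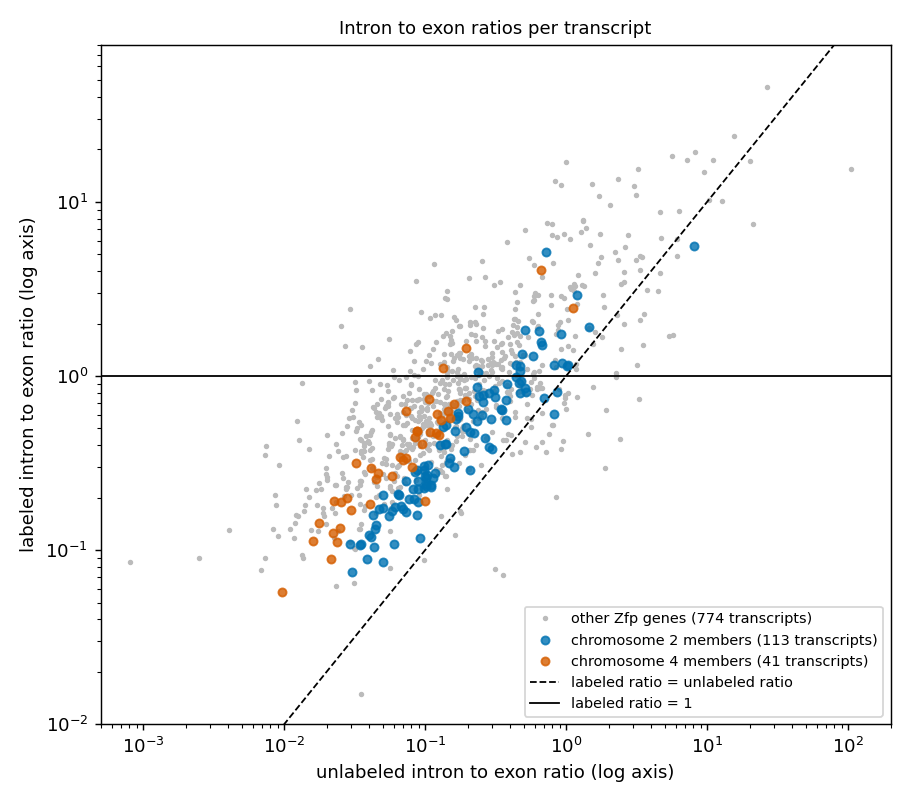
Intron to exon ratio in unlabeled (horizontal) and labeled (vertical) RNA per transcript, on log axes, for members of chromosome 2 (blue), of chromosome 4 (orange) and other Zfp genes (grey); transcripts above the solid line or below the dashed line are incompatible with the model. Chromosome 2 members (median unlabeled ratio 0.162) lie further right than chromosome 4 members (median 0.0733), a gap that narrows to 0.0883 and 0.0801 in transcripts with 3 or more fingers.

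Summed per gene, the labeled ratio was 1 or more in 6 of 67 members, all on chromosome 2 (28.9% of all genes). Zfp831 is 1 of them. Among genes with a mean exon level of at least 10, the highest labeled ratios were those of Gm14408 (3.77; introns 179.5 and exons 47.7 in labeled RNA), Zfp972 (3.64; 254 and 69.7) and Zfp967 (1.27; 324 and 256.4). The lowest were those of Gm14296 (0.0860; 40.9 and 476), Gm14409 (0.0893; 63.6 and 712) and Gm14325 (0.108; 153 and 1423). Among these 6 genes exon levels differed more than intron levels, and the pair with the highest ratios had the lowest exon levels. Zfp972 overlaps Gm14327 on the opposite strand and the strand of counting is not given in the sources used here, so that reads of the pair may not be told apart. On chromosome 4 no gene reached a ratio of 1, and Zfp991 came closest at 0.953, with 1 short transcript of 234 bases that had an intron level of 699 and an exon level of 172.

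In the annotation, members come as transcripts that code for a finger array and as others that code for none. Whether the models without fingers are complete was not checked, and some are as short as 192 bases. By a strict C2H2 pattern, 75 of the 156 transcripts coded for 3 or more fingers, 6 for 1 or 2, and 75 for none. Of the last, 61 matched the KRAB pattern. At least 1 transcript matched this pattern in 62 of 67 genes and coded for 3 or more fingers in 55. Finger-coding transcripts with a long array were Gm14295 (25), Gm13212 (20) and Gm14399 (18), while Zfp993, the highest gene, coded for 2 strict motifs and Gm21411 for none.

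On chromosome 2, transcripts without a finger had lower exon levels than those with fingers, at similar intron levels. Median exon levels in labeled RNA were 168 in 62 fingerless and 473 in 48 finger-coding transcripts, and median intron levels 115 and 113. In unlabeled RNA the exon medians were 191 and 624 and the intron medians 55.4 and 54.4. The median rl was accordingly 0.676 without and 0.233 with fingers. In 31 genes that had both kinds, rl was higher in the fingerless transcripts in 27 and ru in 28, by a median of 2.57-fold and 2.59-fold. On chromosome 4, 12 fingerless transcripts had a median rl of 0.287 and 27 finger-coding ones 0.344, and rl was higher without fingers in 3 of 9 genes that had both. The 4 chromosome 4 transcripts with the highest exon levels in labeled RNA were fingerless. The highest was a 387-base transcript of Zfp993, with 3753 in labeled and 6745 in unlabeled RNA, and the next a 574-base transcript of Zfp979, with 3498 and 6478. The other transcript of Zfp993, with 2 motifs, had 1531 and 2241, and the pair of Zfp979 transcripts with 3 motifs had 759 and 480 in labeled and 1242 and 788 in unlabeled RNA. Transcripts of a gene share exons, introns and reads, and finger-coding transcripts are longer (median 1497 against 663 bases on chromosome 2), so that these values are not independent of each other, and the part of length in them was not tested.

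**Figure D5:**
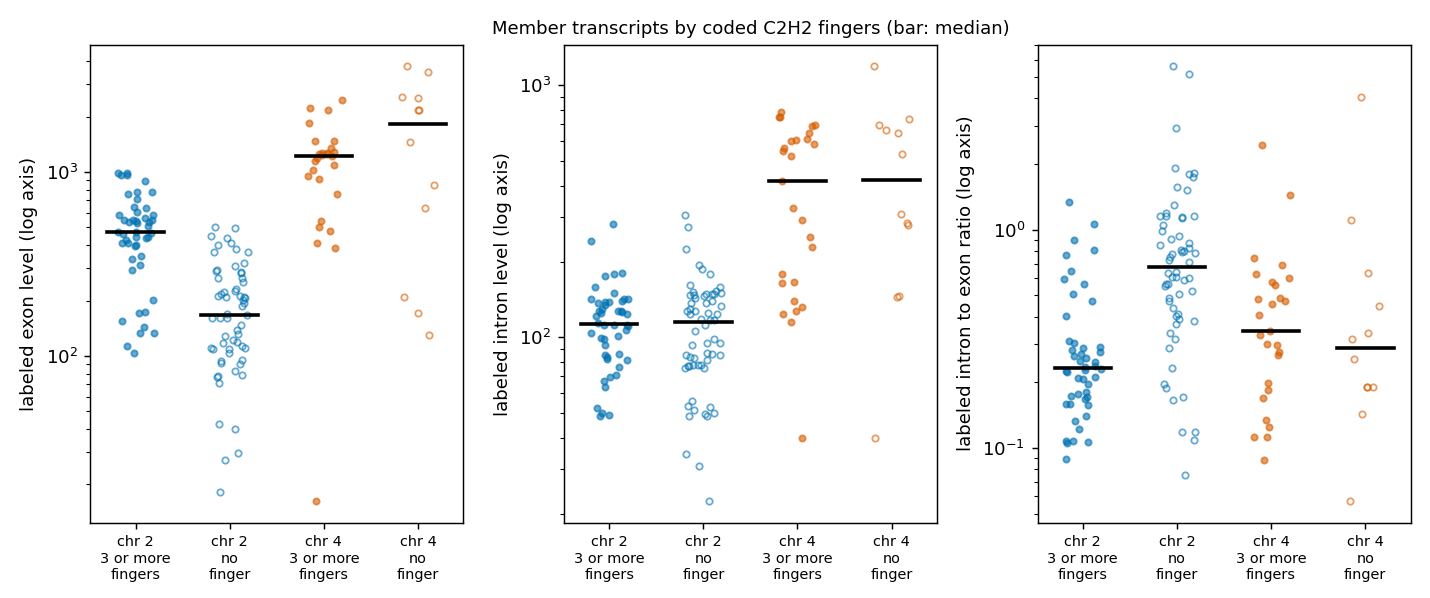
Labeled exon level, labeled intron level and labeled intron to exon ratio (log axes) of member transcripts with 3 or more coded C2H2 motifs (filled) or none (open), on chromosome 2 (blue, 48 and 62 transcripts) and chromosome 4 (orange, 27 and 12), with medians as bars. On chromosome 2 the exon medians are 473 with and 168 without fingers, and the intron medians 113 and 115.

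Gm14399 shows how far the transcripts of 1 gene can lie apart. Its 5 transcripts had exon levels between 114 and 413 in labeled RNA, but rl from 0.0749 to 0.866. The lowest was that of a 2-exon transcript of 192 bases, and the transcript with the full array of 18 motifs had 0.208 (introns 83.4 and exons 401). In Gm14325, by contrast, all 3 transcripts had an rl between 0.107 and 0.109.

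In 12 groups of member transcripts, 28 in all and each group spanning at least 2 genes of chromosome 2, the spliced sequences were identical in GENCODE M21. Reads cannot tell such copies apart, so that their exon levels rest on how reads were divided among them. One group joins Gm2007, Gm11007, Gm2026, Gm4724 and Gm14434 with the same 1497 bases and 13 motifs. Exon levels in labeled RNA were 981 in the first pair, 962 in Gm2026, 779 in Gm4724 and 581 in Gm14434, and in unlabeled RNA 1332, 1332, 1232, 1027 and 820. Intron levels, whose sequences were not compared, were 137, 130, 104, 138 and 180 in labeled and 60.1, 59.2, 43.1, 62.6 and 85.6 in unlabeled RNA. In Zfp967 and Zfp969 the values of 1 such pair were the same to the last digit, 134.0 and 184.2. In Zfp966 and Zfp968 the values of 1 pair were 5.08-fold apart, with 85.4 and 434 in unlabeled RNA, although their deposited intron values were the same (148.1 in labeled and 124 in unlabeled RNA). The authors quantified on Ensembl v91, in which these models may differ. Identical exon values in 2 genes occurred in 4 members (0.0574% of all transcripts) and identical intron values in 4 (0.0159%).

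For the 129 compatible members a degradation half-life was computed with the equations of the study. Its median was 19.4 min, 20.7 min on chromosome 2 and 16.3 min on chromosome 4, with 16.6 min in other Zfp genes and 19.0 min in all compatible transcripts. The equations had an exact solution for 36 members, and 93 (60.4% of 154, where 38.1% of all transcripts fell in this class) had none and received the value that came nearest to one. In those 36 the median was 10.5 min, and with a search over both unknowns for those without a solution it was 3.20 min over the 129. The choice of estimator thus moved the median by more than the windows differed, and no half-life is given per gene.

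Measured by the distance between the 4 log2 levels of a gene, those most like Gm2007 among 13022 genes were Gm11007 (distance 0.14), Mbtd1 (0.60) and Cdv3 (0.63). Those most like Zfp993 were Zfp979 (0.18), Phc1 (0.58) and Hnrnpk (0.65). Gm2007 and Gm11007 hold transcripts of identical spliced sequence with the same deposited exon values, so that their small distance rests in part on the quantification.

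The 27 genes listed for the KRAB pathway, from the corepressor to the H3K9 methyltransferases, HP1 proteins and 4 KRAB zinc finger genes outside the clusters, were all measured. Exon levels were at least 2-fold higher in unlabeled RNA in 10 of them and in labeled RNA in Suv39h1 alone (23.0% and 16% of all genes), which was also the 1 gene whose rl reached 1 (1.15, where 28.9% of all genes did). The median log2 labeled over unlabeled exon level was −0.93, further toward unlabeled RNA than in either cluster. Trim28, the corepressor, had exon levels of 752 and 1653 and an rl of 0.0590. Setdb1, the methyltransferase, had 218 and 394 with an rl of 0.662. Among the 4 zinc finger genes of the list, the log2 value was −0.34 in Zfp57, which protects methylation at imprinted regions, −0.31 in Zfp932, −0.59 in Gm15446 and −0.93 in Zfp809, a repressor of murine leukemia virus elements. Their rl were 0.423, 0.293, 0.279 and 0.824 in the same order.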

How the data were processed

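Labeled and unlabeled RNA were each measured in 1 library. The authors removed ribosomal reads, aligned the rest to exonic and intronic sequences (Ensembl v91; mm10 and GRCm38 in the processing notes) with STAR (2.5.0 in those notes) and quantified them with RSEM. The deposited values, relative abundances called TPM, are used as a signal corrected for length; the design had assumed TPM, but each column sums to 10 times a TPM total. Members and gene lists were chosen with earlier results of these data known. Of 91702 transcripts with an intron value, 98.1% were found in GENCODE M21. Ratios, medians and shares came from pandas 2.3.3 and numpy 2.4.6 under Python 3.11.15. Further tools were numba 0.67.0 for 31-mers, scipy 1.17.1 for the kinetic equations, Biopython 1.88 for translation and matplotlib 3.10.9 for figures. Shares carry 95% Wilson intervals. Intervals of medians are of another kind and run between ranked values of the members. All of these intervals cover the number of transcripts or genes only. C2H2 motifs were counted as 2 cysteines 2 residues apart, 12 residues, and 2 histidines 3 to 5 apart. KRAB was searched as a short A box pattern. Roots of the kinetic equations were sought on 4000 grid points, tested on simulated data. No test was made, since each pool is a single library. The alternatives changed the minimum level, the unit (transcript or gene), a pseudocount, subtraction of leaked unlabeled RNA, the windows, the share of own sequence, the coded fingers and the estimator of half-life.

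Genes were named by a rule: the 12 highest per window, Rex2, and the 3 highest and 3 lowest in labeled ratio and in labeled over unlabeled exon level among those with a mean exon level of at least 10. Genes named outside it were chosen after their values were seen.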

Additional observations from a re-analysis of the deposited data

How the results depend on the processing

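Of 94 values recomputed under the alternatives for 10 results, 62 kept their direction and stayed within the interval of the main value. Another 29 kept their direction but lay outside that interval, and 3 reversed. Each of the 3 lay inside the interval of its main value, which spanned both signs, so that no direction was resolved there. The cause was not tested for any of these changes. The intervals take transcripts or genes as independent, although isoforms and close copies share reads, so that these counts are no measure of robustness. For the median half-life, the interval of the main value was 16.1 to 22.6 min, narrower than the spread of the members. Members had a labeled ratio of 1 or more in 14.9%, in 6.06% with 1 transcript per gene and in 7.58% of genes (28.9% of all genes). In the 13 members with at least 50% of 31-mers of their own, 11 of them on chromosome 4, it was 30.8%. The interval there, 12.7 to 57.6%, holds the 28.2% of all transcripts as well as 14.9%. The share was 9.76% on chromosome 4 alone and 5.33% in transcripts with 3 or more C2H2 motifs. For members incompatible with the model, 16.2%, these values were the same except for 6.67% in the last. The median labeled ratio of 0.397 became 0.268 with 1 transcript per gene, 0.510 in the 13 members and 0.265 with 3 or more motifs. The median unlabeled ratio of 0.119 became 0.0889 with 1 transcript per gene, 0.0878 with 3 or more motifs, 0.162 on chromosome 2 alone and 0.0733 on chromosome 4 alone. The median log2 labeled over unlabeled exon level of −0.36 became −0.42 with 1 transcript per gene, −0.71 in the 13 members, −0.31 on chromosome 2 alone and −0.55 on chromosome 4 alone. It became −0.65 after leakage of unlabeled RNA was subtracted with a factor of 0.142, and this value rests on that factor. The median half-life of 19.4 min became 14.2 min per gene, 30.4 min in the 9 compatible members with mostly own sequence, 10.5 min with an exact solution only and 3.20 min with the search over both unknowns.

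The difference between the windows in this exon value, 0.24, became 0.90 in members with mostly own sequence, of which only 2 lie on chromosome 2, and 0.080 with 3 or more motifs. In the log2 labeled ratio it was 0.26, with an interval of −0.74 to 1.13. It reversed to −0.23 in those members and to −0.56 with 3 or more motifs. Against other Zfp genes, the difference in the exon value was −0.014, with an interval of −0.12 to 0.075. That difference reversed to 0.047 at a mean exon level above 10, and was −0.37 in members with mostly own sequence. In the log2 labeled ratio it was −0.83, −1.41 with 3 or more motifs and −0.47 in members with mostly own sequence. The alternative with fingers counted in RefSeq proteins was not run, and that with motifs counted in GENCODE coding sequences took its place, chosen after seeing the data. Own sequence was counted in exons only. No paired analysis was possible because each pool is 1 library and no result comes from a test.

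The depth of the libraries is unknown, so low levels carry no interval. Levels of close copies rest on how reads were divided, and shares of transcripts count isoforms of 1 gene several times.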

Other observations

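In 5 protein-coding transcripts of the same windows and symbols an exon value and no intron value was used, since each has 1 exon. Those of Gm14296 and 2210418O10Rik, both of 750 bases, had exon levels of 246 and 317 in labeled RNA and of 285 and 346 in unlabeled RNA. The transcript of Gm16503, 3283 bases long, had 83.7 in labeled and 17.4 in unlabeled RNA, and those of Zfp986 and Zfp988, 63 bases each, were listed at 0 in both libraries.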
